A study of Homo sapiens with 7 samples.

Results

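The LINC rows described here are those of a deposited expression table whose symbol is LINC and digits, with no antisense or intronic suffix and a mean of at least 10 normalized counts over 4 libraries. They were chosen by this mean level, which includes the libraries compared, and numbered 75 of 269 LINC rows, in a table of 23710 genes. Each of the 75 was above the floor of the table in every library. Of the other 194 LINC rows, 162 were at the floor in all of them and 32 were above it in at least 1. Long intergenic noncoding RNAs (lincRNAs) are transcripts that lie between protein-coding genes, are spliced and polyadenylated like messenger RNAs, and code for no recognised protein. A gene named LINC with a number carries that name because no function was known when it was named, so the name groups genes by what they lack and not by a shared role. Several have since been given names and functions, as scaffolds or decoys for proteins in the nucleus and cytoplasm, as hosts of small RNAs, or as messages for microproteins. Many are low in abundance, specific to a tissue and altered in liver cancer.

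The study exposed cells of SNU398, an established line from a human hepatocellular carcinoma, to 4 peptides and sequenced total RNA from 1 library per peptide. The groups were PEN-FFW, PEN-WT, PEN-MUT and PEN, each given at 30 µM for 8 hours in the same line, with no untreated group among them. As background on the peptides, PEN is penetratin, a carrier that takes cargo into cells, PEN-WT adds the part of the transcription factor SALL4 that binds RBBP4 of the NuRD complex, PEN-MUT adds a mutated form of it and PEN-FFW an engineered one. The other 3 samples of the series, chromatin immunoprecipitations and their input, are not analysed here. All 6 pairs of libraries were compared. With 1 library per peptide there is no replicate error and no test between peptides. Every difference below describes a pair of libraries, and the ± beside it is a standard error for the counting of reads alone.

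Reads in genes above the floor of the table numbered 27347377 with PEN-FFW, 40717633 with PEN-WT, 32043544 with PEN-MUT and 37784093 with PEN. Of 12 hepatocyte and liver cancer markers, 8 were at the floor of 5 normalized counts in every library, among them HNF4A, SERPINA1, APOB and the keratins KRT8 and KRT18. The oncofetal marker GPC3 ranged from 998 to 1281 normalized counts and ALB from 83.1 to 157. Among markers of other cell types, the matrix gene DCN lay between 1355 (PEN-FFW) and 2153 (PEN-MUT). The collagen gene COL1A1 was highest in PEN-FFW (221) and lowest in PEN (127). COL1A2, another collagen gene on that list, was lower in PEN-FFW (22.2) than in PEN (29.4). PDGFRB was at the floor except in PEN (6.72). The leukocyte gene PTPRC lay between 298 and 373, while 3 endothelial markers were at the floor. Most liver markers were not above the floor in a line labelled as hepatocarcinoma, and a value at the floor does not show that the gene is silent. Summed over a list, the hepatocyte markers gave 1139 with PEN-FFW, 1472 with PEN-WT, 1489 with PEN-MUT and 1431 with PEN, the leukocyte markers from 533 to 666, with CD3E and CD14 at the floor, and the fibroblast markers from 1603 to 2344. Most of the hepatocyte sum was GPC3 and most of the fibroblast sum was DCN. These sums are as deposited, a scale on which the median tested gene of PEN-FFW is also lower. Their part in the results below was not tested. In bulk RNA, fewer cells of a type and less RNA per cell cannot be told apart.

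The sequences shown are promoters of LINC rows on which the results turn, 300 bases around the gene start, as RefSeq gives them for GRCh38.p14. LINC00442 (chr13:19008009-19008308, plus strand), LINC00176 (chr20:64035932-64036231, plus, listed as C20orf204) and LINC00173 (chr12:116533172-116533471, plus) were among the highest in PEN-FFW. LINC00460 (chr13:106376314-106376613, plus) and LINC00623 (chr1:120911988-120912287, plus) were among the lowest, and LINC00657 (chr20:36050911-36051210, minus, listed as NORAD) held from 47.5% to 50.3% of the reads of the LINC rows. Capitals mark CpG dinucleotides, which are dense in the promoters of broadly expressed genes.
LINC00442: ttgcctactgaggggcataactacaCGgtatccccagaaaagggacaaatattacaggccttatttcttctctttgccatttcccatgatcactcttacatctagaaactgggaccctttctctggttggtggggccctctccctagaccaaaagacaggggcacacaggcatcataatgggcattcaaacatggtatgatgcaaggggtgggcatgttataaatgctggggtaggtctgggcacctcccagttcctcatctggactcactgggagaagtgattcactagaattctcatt
LINC00176: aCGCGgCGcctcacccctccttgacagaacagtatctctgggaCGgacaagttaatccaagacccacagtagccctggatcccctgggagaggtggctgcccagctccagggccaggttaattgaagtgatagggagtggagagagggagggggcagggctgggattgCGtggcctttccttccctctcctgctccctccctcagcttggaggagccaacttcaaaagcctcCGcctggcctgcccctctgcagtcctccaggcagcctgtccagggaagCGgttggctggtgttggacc
LINC00173: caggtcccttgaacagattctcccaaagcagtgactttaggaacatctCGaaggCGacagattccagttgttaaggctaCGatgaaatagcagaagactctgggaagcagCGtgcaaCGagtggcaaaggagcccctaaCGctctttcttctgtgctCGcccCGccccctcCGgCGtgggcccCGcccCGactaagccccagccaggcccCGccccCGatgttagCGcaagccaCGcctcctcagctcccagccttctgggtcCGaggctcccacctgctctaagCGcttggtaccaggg
LINC00460: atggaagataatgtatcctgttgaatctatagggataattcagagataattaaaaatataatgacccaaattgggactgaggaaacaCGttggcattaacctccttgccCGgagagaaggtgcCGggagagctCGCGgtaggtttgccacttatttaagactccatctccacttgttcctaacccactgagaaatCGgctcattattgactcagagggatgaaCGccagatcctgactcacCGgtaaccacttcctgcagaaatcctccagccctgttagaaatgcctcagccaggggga
LINC00623: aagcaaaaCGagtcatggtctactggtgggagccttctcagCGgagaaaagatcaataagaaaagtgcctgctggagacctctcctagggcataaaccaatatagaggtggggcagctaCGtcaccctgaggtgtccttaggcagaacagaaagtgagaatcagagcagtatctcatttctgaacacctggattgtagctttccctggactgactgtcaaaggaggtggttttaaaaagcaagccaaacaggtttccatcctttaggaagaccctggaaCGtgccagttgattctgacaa
LINC00657: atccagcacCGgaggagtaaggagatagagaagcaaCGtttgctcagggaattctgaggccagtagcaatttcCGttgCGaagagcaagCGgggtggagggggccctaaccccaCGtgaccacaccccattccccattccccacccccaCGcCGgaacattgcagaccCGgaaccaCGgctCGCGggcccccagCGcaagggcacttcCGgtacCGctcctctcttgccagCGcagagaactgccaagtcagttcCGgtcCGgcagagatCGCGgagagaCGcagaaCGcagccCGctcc

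The promoters of LINC00442 and LINC00623 were poor in CpG, with 1 and 4 dinucleotides in 300 bases, whereas LINC00173 had 18 and LINC00657 had 23. LINC00176 had 7 at a GC content of 62.0%, and LINC00460 had 8 at 46.7%. By these entries, promoters poor in CpG occurred among the rows highest and among those lowest in PEN-FFW. LINC00623, on the lower side, had no usable position in the gene annotation used here. Whether this promoter belongs to the counted row is therefore uncertain. RefSeq gave a promoter for 55 of the 75 rows, with a median of 13 CpG dinucleotides and 58.0% GC. The medians were 14 and 58.3% in all 27305 promoters of that length, and 26 and 65.3% in the 11189 of genes tested here. The letters TATAAA, searched on both strands, were present in 6 of the 55 (10.9%), LINC00442 among them. They were present in 12.0% of all promoters and in 5.83% of those of tested genes. In all 3 measures the LINC rows were thus nearer to the full set of promoters than to those of the tested genes.

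The LINC rows took a small share of the transcriptome, with 0.118% of reads with PEN-FFW, 0.115% with PEN-WT, 0.112% with PEN-MUT and 0.112% with PEN. Their median mean level was 89.5 normalized counts, against 818 for the 14660 genes that reached the same minimum, and 54.7% of them lay under 100 where 20.5% of those genes did. Their annotated transcripts were shorter (median 1589 bases, against 3251) with a similar GC content (48.2% against 48.6%). In GENCODE 44 on GRCh37, 66 rows had a usable position, and 38 of these shared exon bases with another annotated gene. The strand setting of the authors' counting is not given in the sources used here, so reads of such overlapping genes cannot be told apart.

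LINC00657, now named NORAD, is a cytoplasmic RNA that binds PUMILIO proteins and is known for its role in chromosome stability. It is a single exon of 5401 bases at chromosome 20, 34633540 to 34638940, minus strand (GRCh37). Its normalized counts were 14096 with PEN-FFW, 18159 with PEN-WT, 18045 with PEN-MUT and 17879 with PEN. The PEN-FFW library was the lowest and the other three lay close together. As deposited, the median tested gene of PEN-FFW also stood at -0.24 from PEN on the log2 scale. Differences are therefore given as log2(normalized count + 10), after subtracting the median over tested genes in that pair. On that scale LINC00657 was at -0.11 ± 0.02 in PEN-FFW against PEN and -0.01 ± 0.01 in PEN-WT against PEN. The direction of the first turned with the centring, to 0.09 against genes of similar mean count, and was 0.00 against genes of similar GC content. Against PEN-MUT it was -0.09 ± 0.02, and 0.10 and 0.01 with those centrings.

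Per length of the canonical transcript, LINC00657 averaged 3156 normalized counts per kilobase over the 4 libraries. LINC00493, now SMIM26, which codes for a small membrane protein of mitochondria, averaged 2275 per kilobase. LINC00221, at chromosome 14, 106938441 to 106977000, inside the immunoglobulin heavy chain locus, averaged 1592 per kilobase. LINC00338, the small nucleolar RNA host SNHG20, followed at 539 per kilobase, LINC00461, host of a microRNA, at 537, LINC00152 at 442, LINC00616 at 418 and LINC00116 at 352. The annotation may differ from that used for counting, and LINC00674, next after LINC00657 in reads, has no usable length there. LINC00674 had 3334 normalized counts with PEN-FFW, 4050 with PEN-WT, 3890 with PEN-MUT and 3805 with PEN, a difference of 0.05 ± 0.03 in PEN-FFW against PEN.

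Relative to the median gene, LINC rows tended to be higher in PEN-FFW than in each of the other libraries, and lay near the median gene between the other libraries. Their median difference was 0.23 in PEN-FFW against PEN, 0.14 against PEN-MUT and 0.16 against PEN-WT, where all tested genes have a median of 0 by construction. Of the 75 rows, 49 lay above the median gene against PEN, 52 against PEN-MUT and 48 against PEN-WT. Without that centring, as deposited, the medians were -0.01 against PEN, -0.12 against PEN-MUT and -0.12 against PEN-WT, so their sign rests on the centring. In PEN-WT against PEN the centred median was 0.00 (38 above), in PEN-WT against PEN-MUT 0.04 (44 above) and in PEN-MUT against PEN -0.02 (33 above). These comparisons share libraries and are not independent of each other.

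**Figure D1:**
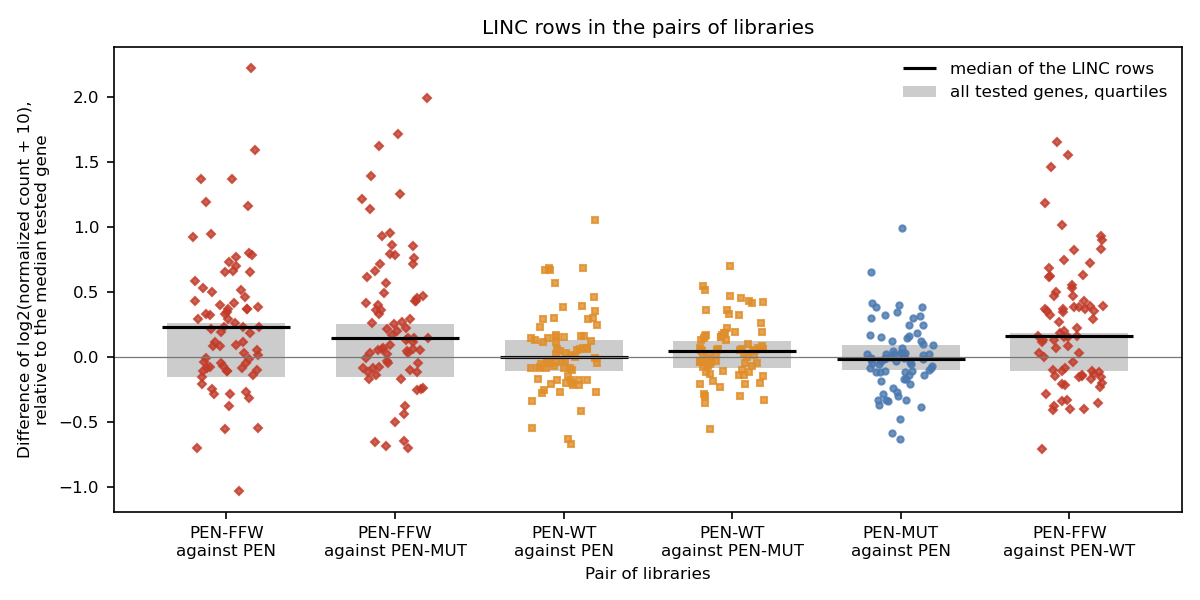
Difference of log2(normalized count + 10) relative to the median tested gene (vertical axis) for the 75 LINC rows in each pair of libraries (points), with their median (black line) and the quartile range of all 14660 tested genes (grey bar). The median line lies at 0.23, 0.14 and 0.16 in the pairs that involve PEN-FFW, and between -0.02 and 0.04 in the others.

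The higher median in PEN-FFW moved with abundance, and other genes of like abundance showed it too. Among rows of 10 to 30 mean normalized counts, 20 LINC rows had a median of 0.50 in PEN-FFW against PEN, and 1407 other genes had 0.43. From 30 to 100 the medians were 0.29 for 21 LINC rows and 0.33 for 1551 other genes, and from 100 to 300 they were 0.23 for 19 and 0.15 for 1746. At 300 or more, 15 LINC rows stood at -0.05 and 9881 other genes at -0.07. Set against genes of similar mean count in 20 bins, the LINC median in PEN-FFW against PEN was 0.00. Across the 75 rows the Spearman correlation of this difference with the mean count was -0.33, and with GC content 0.22 over 66 rows. Over all tested genes the same correlations were -0.47 (14660 genes) and 0.36 (14084 genes), so neither is particular to the LINC rows. The points share both libraries and their depth. Set against genes of similar GC content, the median was 0.26.

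**Figure D2:**
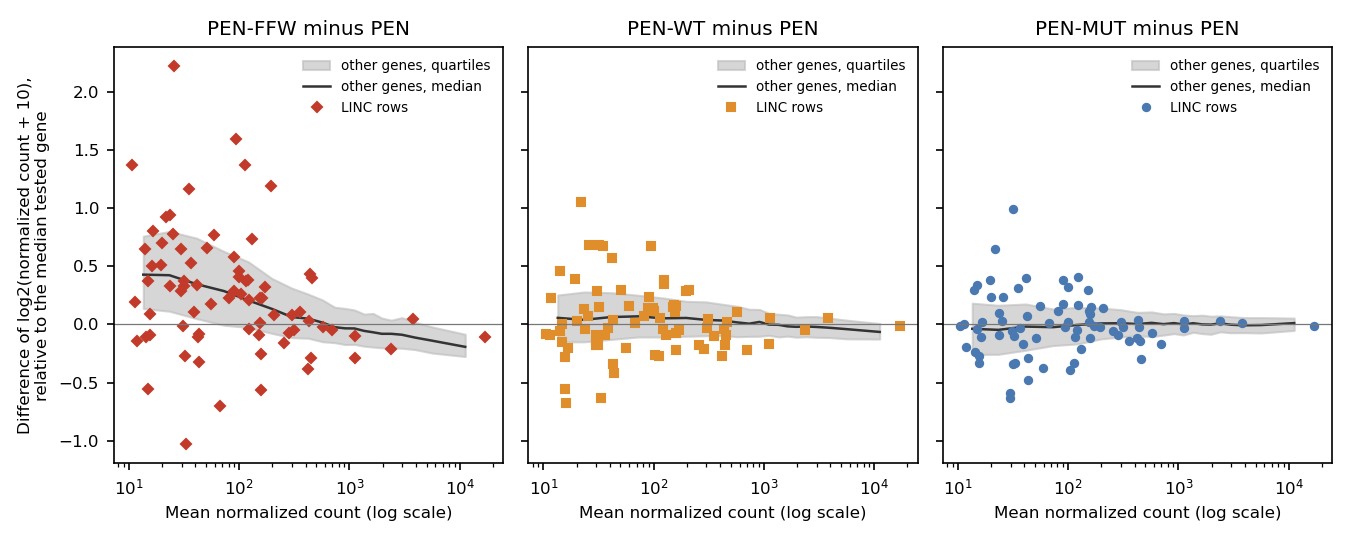
Difference from PEN of log2(normalized count + 10), relative to the median tested gene (vertical axis), against the mean normalized count over 4 libraries (log axis), for LINC rows (points) and for the other tested genes in 20 bins (line, median; grey, quartiles). In PEN-FFW both the LINC rows and the other genes lie above 0 at low counts, with medians of 0.50 and 0.43 from 10 to 30 counts, while in PEN-WT and PEN-MUT the line stays near 0.

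At a 2-fold threshold, 6 of 75 LINC rows (8%) were higher in PEN-FFW than in PEN, against a background of 3.73% of all tested genes, and 1 was lower, against 0.0546%. LINC00311, which reached the minimum through PEN-FFW alone, had to differ, and without it 5 of 74 rows were higher. The 6 were LINC00442, LINC00174, LINC00645, LINC00311, LINC00176 and LINC00173. Against PEN-MUT, 7 were at least 2-fold higher (background 4.44%), or 6 without LINC00311, and 0 lower (0.00682%). LINC00852 and LINC00235 joined the list there and LINC00173 dropped out at 0.86 ± 0.26. Against both PEN and PEN-MUT, 5 rows were 2-fold higher (2.87%), or 4 without LINC00311, and 0 lower (0%). At 1.5-fold, 16 rows were higher than with PEN (10.7%) and 2 lower (0.6%), and 18 were higher than with PEN-MUT (11.2%) and 4 lower (0.211%). At 1.5-fold, 13 rows were higher against both (8.21%), or 12 without LINC00311, and 2 lower (0.075%), LINC00326 and LINC00623. Rows of low abundance were past the 1.5-fold threshold more often in LINC rows and other genes alike. From 10 to 30 counts, 45.0% of LINC rows and 37.5% of other genes were that much higher in PEN-FFW than in PEN, and from 30 to 100 counts 19.0% and 30.9%.

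LINC00442 lies on chromosome 13, 19582399 to 19600942, plus strand (GRCh37), in 5 exons, of which 315 bases overlap an unnamed lncRNA on the other strand. It had 62.8 normalized counts with PEN-FFW, 20.2 with PEN-WT, 12.0 with PEN-MUT and 8.40 with PEN, from 68, 26, 12 and 10 reads. PEN-FFW was far above the others, PEN-WT was next, and the control peptides were lowest. The differences were 2.22 ± 0.26 in PEN-FFW against PEN and 1.99 ± 0.27 against PEN-MUT, the largest of any LINC row in both. LINC00442 reached the mean of 20 required of ranked rows, at 25.8, only through PEN-FFW. In PEN-WT it stood at 0.68 ± 0.28 against PEN and 0.45 ± 0.30 against PEN-MUT. The nearest coding gene in the table, the tubulin gene TUBA3C at 146970 bases, was lower (-0.49 ± 0.04 in PEN-FFW against PEN).

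LINC00174 lies among copies of pseudogenes on chromosome 7, 65841031 to 65958553, minus strand, and shares 1511 exon bases with annotated pseudogenes. It had 162 normalized counts with PEN-FFW, 99.4 with PEN-WT, 57.0 with PEN-MUT and 57.1 with PEN. The control libraries were level, PEN-WT stood above them and PEN-FFW was highest. Differences were 1.59 ± 0.18 in PEN-FFW against PEN, 1.62 ± 0.19 against PEN-MUT and 0.67 ± 0.19 in PEN-WT against PEN. The assignment of its reads between these copies is uncertain.

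LINC00645, on chromosome 14 from 28081783 to 28108842, plus strand, has the lowest transcript GC content of the 66 LINC rows with a value, at 34.7%. It had 210 normalized counts with PEN-FFW, 75.3 with PEN-WT, 71.0 with PEN-MUT and 90.7 with PEN. PEN-FFW alone stood apart, by 1.37 ± 0.15 from PEN, 1.71 ± 0.18 from PEN-MUT and 1.65 ± 0.16 from PEN-WT. PEN-WT against PEN was at -0.27 ± 0.18. Its nearest coding neighbour, the neuronal splicing factor NOVA1 at 1014544 bases, was also higher in PEN-FFW than in PEN (0.68 ± 0.10).

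LINC00176, described in liver cancer, is now listed as the protein-coding C20orf204 on chromosome 20, 62665697 to 62671315, plus strand. Its transcript is the most GC-rich of the LINC rows with a value, at 71.4%. It had 295 normalized counts with PEN-FFW, 188 with PEN-WT, 148 with PEN-MUT and 148 with PEN. Controls were level, PEN-WT was slightly higher and PEN-FFW highest, with differences of 1.19 ± 0.13 in PEN-FFW against PEN and 0.29 ± 0.13 in PEN-WT against PEN. In PEN-FFW it was short of 2-fold against genes of similar GC content (0.92 against PEN and 0.98 against PEN-MUT) and as deposited (0.95 in both). Its coding neighbour PRPF6, a splicing factor 1244 bases away, was level (-0.01 ± 0.03).

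LINC00173, on chromosome 12 from 116971227 to 116974323, had 48.9 normalized counts with PEN-FFW, 40.4 with PEN-WT, 29.0 with PEN-MUT and 21.0 with PEN. PEN-FFW was highest and PEN-WT next, at 1.16 ± 0.26 and 0.67 ± 0.25 from PEN, with 0.50 ± 0.23 between them. LINC00536 differed from PEN by 0.94 ± 0.27 and LINC00319 by 0.78 ± 0.27. LINC00536, at a mean of 23.4, also reached the 20 required of ranked rows only through PEN-FFW. LINC00858 differed by 0.66 ± 0.22 and LINC00085, whose symbol is now an older name of the sperm acrosome gene SPACA6, by 0.73 ± 0.15. LINC00311, with a mean of 10.6, is the 1 row that reached the minimum through PEN-FFW: it had 24.9 normalized counts with PEN-FFW, 5.43 with PEN-WT, 6.00 with PEN-MUT and 5.88 with PEN. Its difference follows from that. Its mean was under the 20 required of ranked rows, and it is named after its values were seen. Its span lies within GSE1, which was itself higher in PEN-FFW than in PEN (0.56 ± 0.03).

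LINC00852 overlaps the ghrelin gene GHRL on the opposite strand by 81 exon bases on chromosome 3 (10326103 to 10327430). It had 82.2 normalized counts with PEN-FFW, 62.9 with PEN-WT, 40 with PEN-MUT and 53.7 with PEN. GHRL had 72.9 with PEN-FFW, 33.4 with PEN-WT, 13.0 with PEN-MUT and 18.5 with PEN. Both were highest in PEN-FFW and lowest in PEN-MUT, by 0.77 ± 0.20 and 1.78 ± 0.25 against PEN. Without the strand setting their reads cannot be told apart where they overlap. For 55 LINC rows the nearest coding gene in the table was tested, at 0 to 1411314 bases, and some genes served more than 1 row. The Spearman correlation between a row's difference and its neighbour's was 0.26 in PEN-FFW against PEN, 0.10 against PEN-MUT and 0.12 against PEN-WT. It was -0.15 in PEN-WT against PEN, and all are descriptions of points that share both libraries.

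LINC00326, on chromosome 6 from 133275396 to 133428549, was the row at least 2-fold lower in PEN-FFW than in PEN. It had 14.8 normalized counts with PEN-FFW, 29.5 with PEN-WT, 38 with PEN-MUT and 49.5 with PEN. PEN-FFW was lowest and PEN highest, and the difference of PEN-FFW from PEN was -1.03 ± 0.27. PEN-WT stood at -0.63 ± 0.23 and PEN-MUT at -0.33 ± 0.24 from PEN. Against PEN-MUT, PEN-FFW was at -0.69 ± 0.28, short of the 2-fold threshold. These values rest on 16 to 59 reads, and 1183 of its exon bases overlap an unnamed lncRNA on the other strand.

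LINC00623 had 35.1 normalized counts with PEN-FFW, 79.2 with PEN-WT, 78 with PEN-MUT and 76.4 with PEN. PEN-FFW was low and the other three were level, within 0.01 of one another relative to the median gene. It stood at -0.70 ± 0.23 from PEN and -0.71 ± 0.22 from PEN-WT. LINC00460, reported to be raised in several carcinomas, lies on chromosome 13, 107026825 to 107036663, plus strand. It had 99.7 normalized counts with PEN-FFW, 158 with PEN-WT, 196 with PEN-MUT and 181 with PEN (-0.56 ± 0.16 in PEN-FFW against PEN). PEN-FFW was lowest and PEN-WT next. Its nearest coding gene, the ephrin ligand EFNB2 at 105430 bases, had 5782 with PEN-FFW, 7391 with PEN-WT, 8798 with PEN-MUT and 9818 with PEN (-0.53 ± 0.02).

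**Figure D3:**
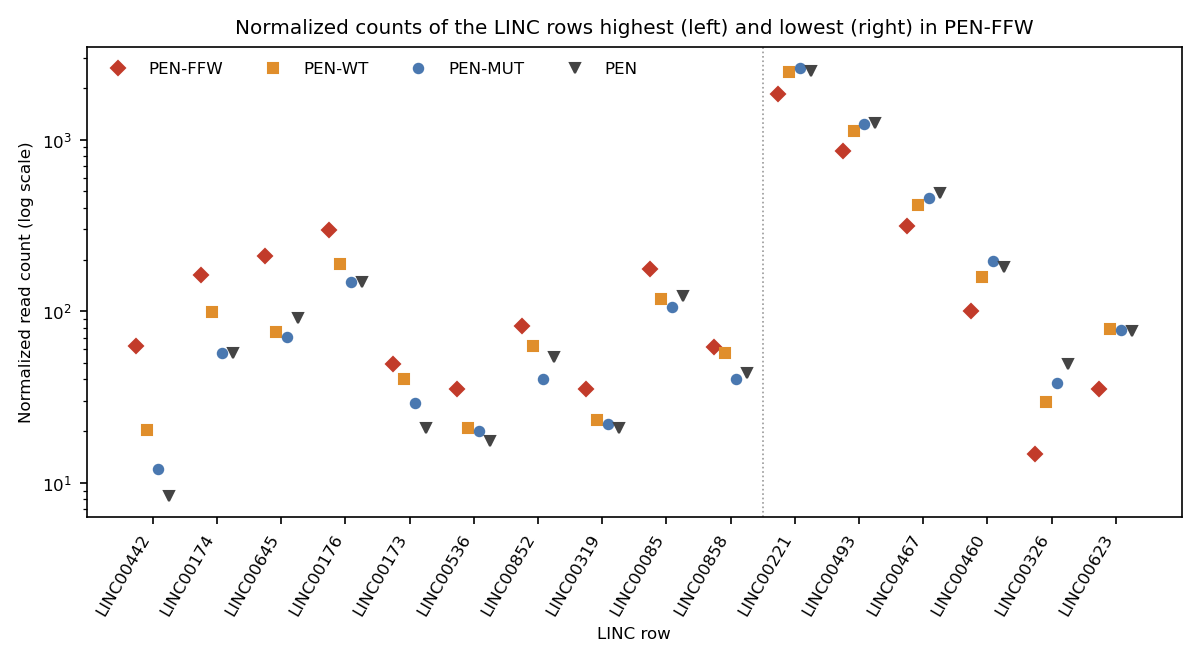
Normalized read count (log axis) of the 10 LINC rows ranked highest (left of the dotted line) and the 6 ranked lowest (right) in PEN-FFW against PEN and PEN-MUT, with 1 point per library. LINC00442 reaches 62.8 in PEN-FFW against 8.40 in PEN, and LINC00623 stands at 35.1 in PEN-FFW where the other libraries lie from 76.4 to 79.2.

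Of 11 listed LINC genes known to code for microproteins, 5 were among the LINC rows, and in PEN-FFW none of these 5 lay above the median gene against PEN, PEN-MUT or PEN-WT. The list does not hold every such row: LINC00634, now SMIM45, stood above the median gene in PEN-FFW, at 0.29 ± 0.25 against PEN, 0.93 ± 0.28 against PEN-MUT and 0.47 ± 0.25 against PEN-WT. LINC00087, which shares its present symbols with the listed LINC00086, was also above it, at 0.51 ± 0.29, 0.14 ± 0.30 and 0.13 ± 0.28. Microprotein rows therefore lay on both sides of the median gene. With centring on genes of similar mean count, LINC00634 was at -0.14 against PEN and LINC00087 at -0.32 against PEN-MUT and -0.27 against PEN-WT, and as deposited LINC00087 was at -0.12 and -0.15 in those same comparisons. LINC00493 (SMIM26) had 859 normalized counts with PEN-FFW, 1128 with PEN-WT, 1229 with PEN-MUT and 1243 with PEN, at -0.29 ± 0.06 in PEN-FFW against PEN. LINC00467, reported to code for a peptide of the mitochondrial ATP synthase, had 316 with PEN-FFW, 415 with PEN-WT, 458 with PEN-MUT and 491 with PEN, at -0.38 ± 0.10. LINC00116, which codes for mitoregulin of the inner mitochondrial membrane, was at -0.09 ± 0.16 against PEN and -0.38 ± 0.16 against PEN-MUT. LINC00094, opposite BRD3, was at -0.10 ± 0.06 and LINC00086, an older name of the near-identical copies SMIM10L2A and SMIM10L2B, at -0.11 ± 0.25 against PEN, and reads of such copies are uncertain. The median of the 5 was -0.11 in PEN-FFW against PEN and 0.04 in PEN-WT against PEN. None of the 5 was 2-fold apart in any pair. RefSeq now lists 9 of the LINC rows as protein-coding, and those 9, which include LINC00176 and LINC00085, had a median of 0.29 in PEN-FFW against PEN and -0.12 against PEN-MUT.

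Of 28 listed LINC genes with described roles, 14 were among the LINC rows, with medians of -0.01 in PEN-FFW against PEN (6 above the median gene), 0.06 against PEN-MUT (9 above) and 0.09 against PEN-WT (8 above). The medians were -0.07 in PEN-WT against PEN and -0.04 in PEN-MUT against PEN. LINC00176 was the member past 2-fold. LINC00152, named CYTOR and raised in many carcinomas, had 347 normalized counts with PEN-FFW, 487 with PEN-WT, 463 with PEN-MUT and 506 with PEN (-0.29 ± 0.09 in PEN-FFW against PEN). LINC00478, the host gene MIR99AHG of a microRNA cluster, had 497 with PEN-FFW, 392 with PEN-WT, 434 with PEN-MUT and 434 with PEN, at 0.43 ± 0.09 in PEN-FFW and -0.18 ± 0.09 in PEN-WT against PEN. It was highest in PEN-FFW and lowest in PEN-WT, with 0.61 ± 0.09 between them. LINC00338 (SNHG20) stood at -0.07 ± 0.11 in PEN-FFW and -0.21 ± 0.10 in PEN-WT against PEN. LINC00339, near the GTPase gene CDC42, was at -0.16 ± 0.12, LINC00265 at 0.37 ± 0.16, LINC00665 at 0.32 ± 0.14 and LINC00662 at -0.02 ± 0.08 in PEN-FFW against PEN. LINC00673, LINC00340 (CASC15) and LINC00441, which starts 24 bases from the tumour suppressor gene RB1 on the other strand, lay between -0.01 and 0.19. As deposited, they were at -0.24, -0.15 and -0.05. Against genes of similar mean count, LINC00340 was at -0.34 and LINC00441 at -0.23, so the sign of both rests on the centring.

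LINC00641 was among the 8 rows with the most reads. It had 520 normalized counts with PEN-FFW, 480.5 with PEN-WT, 379 with PEN-MUT and 462 with PEN, at 0.40 ± 0.08 against PEN and 0.71 ± 0.09 against PEN-MUT. PEN-FFW was highest and PEN-MUT lowest. LINC00221 was at -0.21 ± 0.04 in PEN-FFW against PEN, and LINC00839 at -0.05 ± 0.07.

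**Figure D4:**
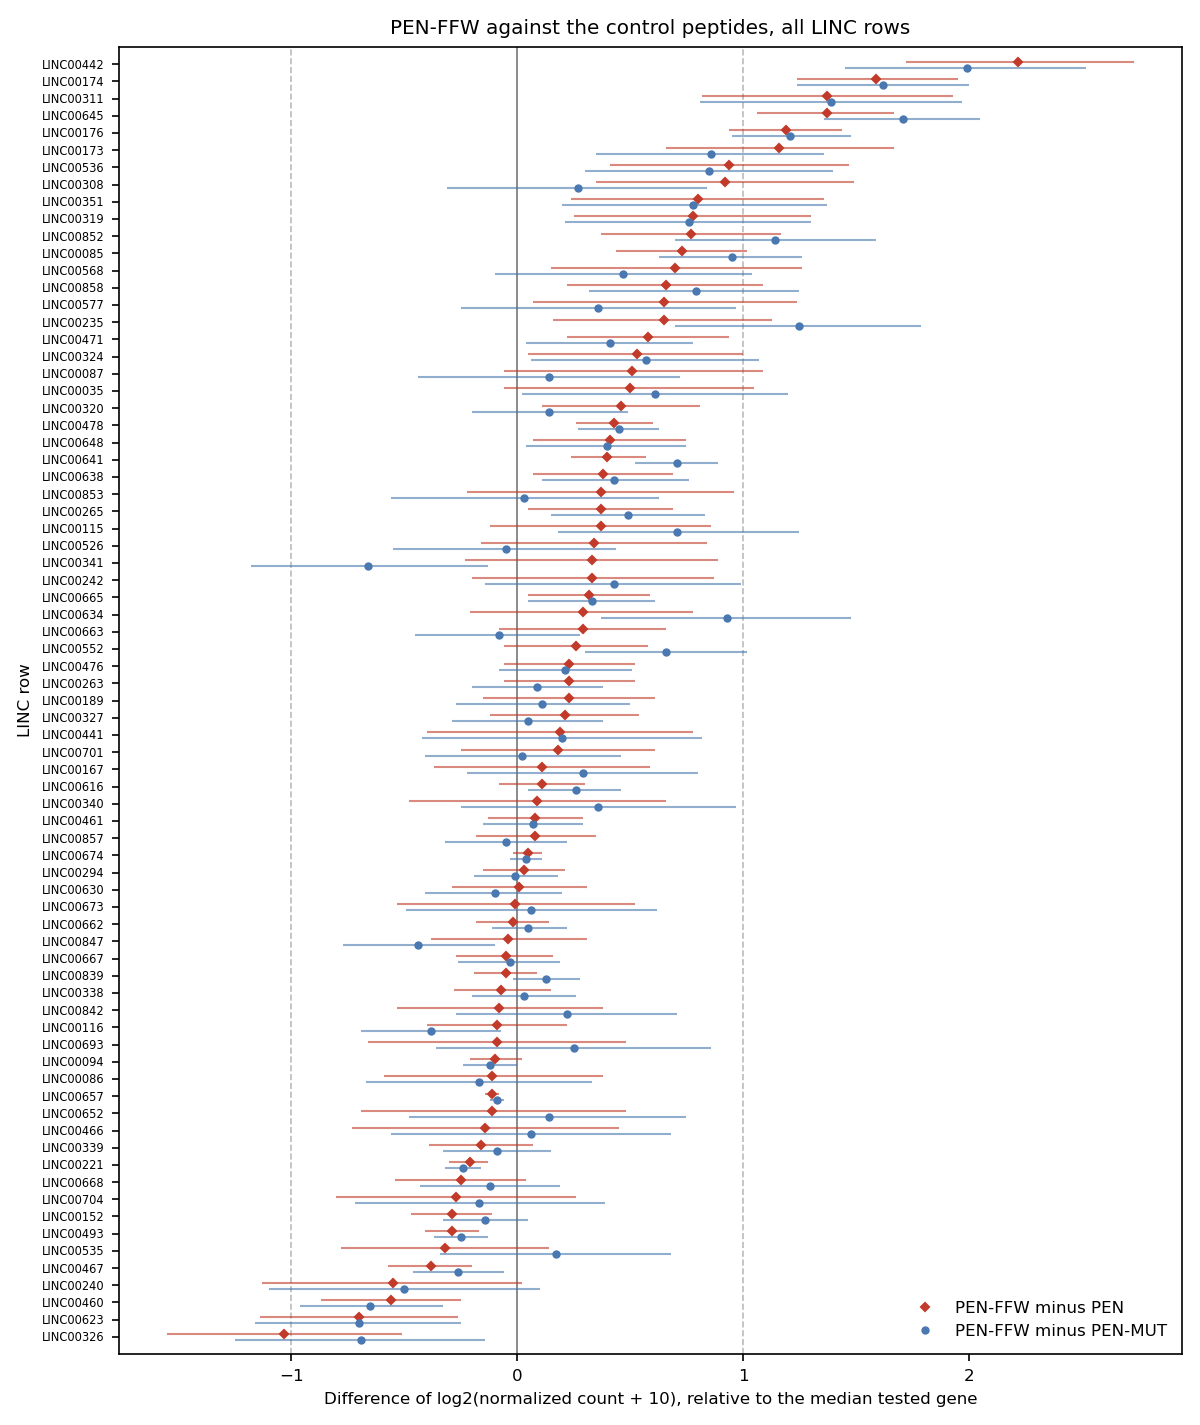
Difference of PEN-FFW from PEN (diamonds) and from PEN-MUT (circles) in log2(normalized count + 10), relative to the median tested gene, for all 75 LINC rows, sorted by the first; bars are 95% counting intervals and dashed lines mark 2-fold. LINC00442 lies highest in both at 2.22 and 1.99, and LINC00326 lowest against PEN at -1.03.

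Of the LINC rows, 66 were within 0.5 of the median gene in PEN-WT against PEN and 71 against PEN-MUT. Between the control peptides, 71 were. The share of all tested genes within 0.5 was not computed. In PEN-WT against PEN the quartiles were -0.16 and 0.15 for LINC rows, and -0.11 and 0.13 for all tested genes. Against PEN-MUT they were -0.09 and 0.17, and -0.09 and 0.12. At 2-fold, 1 LINC row was higher in PEN-WT than in PEN (background 0.0955%) and 0 lower (0.0205%). Against PEN-MUT, 0 were higher (0.0546%) and 0 lower (0.00682%). The 1 row was LINC00308, on chromosome 21 from 23470935 to 23488924, with 22.2 normalized counts with PEN-FFW, 32.6 with PEN-WT, 22.0 with PEN-MUT and 10.1 with PEN. PEN was the low library there, so PEN-WT differed by 1.05 ± 0.27 from PEN and by 0.41 ± 0.27 from PEN-MUT. Against both controls, 0 rows were 2-fold higher (0.0341%). At 1.5-fold, 5 rows were higher than with PEN (1.36%) and 2 lower (0.634%), and against both controls 1 was higher (0.423%), LINC00174, and 0 lower (0.0409%). LINC00858 was at 0.30 ± 0.22 against PEN. On the lower side LINC00460 stood at -0.22 ± 0.13, LINC00701 at -0.20 ± 0.21 and LINC00467 at -0.27 ± 0.08 against PEN.

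Between the control peptides, 0 LINC rows were 2-fold higher in PEN-MUT than in PEN (background 0%) and 0 were lower (0.0136%). At 1.5-fold, 2 were higher (0.58%) and 2 lower (1.01%). LINC00341, an older name now under the nuclear envelope gene SYNE3, came closest. It had 21.2 normalized counts with PEN-FFW, 38 with PEN-WT, 49.0 with PEN-MUT and 19.3 with PEN, with 0.99 ± 0.26 in PEN-MUT against PEN. PEN-MUT was highest, and PEN-FFW and PEN were lowest. PEN-FFW was at -0.66 ± 0.27 from PEN-MUT and 0.33 ± 0.28 from PEN, the second of which was 0.09 as deposited and -0.02 against genes of similar mean count. LINC00308 (0.65 ± 0.30), LINC00847 (0.41 ± 0.16), LINC00526 (0.40 ± 0.25) and LINC00663 (0.38 ± 0.18) were also higher in PEN-MUT. LINC00634, now the microprotein gene SMIM45, had 36.0 with PEN-FFW, 30.3 with PEN-WT, 19.0 with PEN-MUT and 34.4 with PEN. It was low in PEN-MUT (-0.63 ± 0.28), as were LINC00235 (-0.59 ± 0.28), LINC00535 (-0.48 ± 0.24), LINC00552 (-0.39 ± 0.18) and LINC00852 (-0.37 ± 0.24). Their values against PEN-MUT in PEN-FFW, from 0.17 for LINC00535 to 1.25 for LINC00235, therefore exceed those against PEN.

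PEN-FFW and PEN-WT, which carry an engineered and a native SALL4 sequence, were compared at 1 dose and 1 time. At 2-fold, 5 LINC rows were higher in PEN-FFW (background 2.27%), or 4 without LINC00311, and 0 lower (0.00682%). At 1.5-fold, 15 were higher (7.73%) and 1 lower (0.0614%). LINC00645 differed by 1.65 (95% counting interval 1.34 to 1.96), LINC00442 by 1.55 (1.07 to 2.02), LINC00174 by 0.93 (0.62 to 1.23), LINC00176 by 0.90 (0.67 to 1.13) and LINC00085 by 0.83 (0.54 to 1.12). Among rows with a mean of at least 20, LINC00623 was lowest (-0.71, interval -1.14 to -0.27), followed by LINC00704 (-0.41 ± 0.26), LINC00326 (-0.40 ± 0.28), LINC00847 (-0.38 ± 0.17) and LINC00341 (-0.34 ± 0.26). LINC00645 and LINC00442 were past 2-fold, and the other rows that were are LINC00311, LINC00351 and LINC00035, all under 20 mean normalized counts and named after their values were seen. LINC00035, listed as the pseudogene BICDL3P, had 23.1 with PEN-FFW, 7.76 with PEN-WT, 16.0 with PEN-MUT and 17.6 with PEN. The counting interval of PEN-FFW against PEN-WT was -0.65 to 0.39 for LINC00308 and -0.06 to 0.06 for LINC00674. These intervals hold counting error only and are no test between the peptides.

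Other noncoding rows did not all follow the same course in PEN-FFW against PEN. The 224 tested rows with an antisense or intronic suffix had a median of 0.33 at a median level of 52.0 counts, and 188 lay above the median gene. The 13 rows for hosts of small nucleolar RNAs had a median of -0.16 at a level of 900, with 1 above. The LINC rows, at 89.5 counts and 0.23, lay between them in both, and no class was tested against another. The antisense and intronic rows were also higher in PEN-FFW against PEN-MUT (0.34) and PEN-WT (0.31). The hosts of small nucleolar RNAs were at -0.03 and -0.05 in those pairs. They were also lower in PEN-WT (-0.21) and PEN-MUT (-0.14) against PEN, so their lower median was not particular to PEN-FFW. The threshold of 10 was crossed closely by LINC00311 (10.6), LINC00441 (11.4) and LINC00466 (11.8), and missed by LINC00312 (9.15), LINC00574 (9.10) and LINC00629 (8.93).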

How the data were processed

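RNA was measured in 4 libraries of SNU398, 1 per peptide. The authors deposited log2 values per gene, with columns assigned through the sample descriptions. The submitters' processing notes name hg19, STAR 2.4.0i and featureCounts 1.5.0-p1. Annotation, strand setting and the method of normalization were not given in the sources used here. Raised to the power of 2, 100% of values above the floor of 5 and under 3000 reads were whole multiples of 1 step per library (0.923 for PEN-FFW, 0.776 for PEN-WT, 1 for PEN-MUT, 0.840 for PEN), within 0.1 read. Dividing by it gave the reads behind the counting errors, which cover counting only. Sequenced fragments are not independent molecules, so the full error is larger.

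Genes with a mean of at least 10 normalized counts were kept, and differences used a pseudocount of 10, which understates the fold of low genes, less the median tested gene. The calculation was tested on simulated data. Python 3.11.15, pandas 2.3.3, NumPy 2.4.6 and SciPy 1.17.1 were used. Positions come from GENCODE 44 on GRCh37, matched by symbol or by a RefSeq older name.

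Named rows were the 8 with the most counts, the 10 highest and 6 lowest in PEN-FFW and 5 each way in PEN-WT by whichever difference, from PEN-MUT or from PEN, was nearer 0, 5 each way for PEN-MUT against PEN and PEN-FFW against PEN-WT (all these ranks from a mean of 20), and list members. Alternatives changed the pseudocount, scaling, centring, minimum and exon overlap. The LINC rows and lists were chosen with earlier results of these data known.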

Additional observations from a re-analysis of the deposited data

How the results depend on the processing

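No paired analysis was possible because each peptide had 1 library, which also means that no library could be left out. Medians and counts of LINC rows at least 2-fold apart were recomputed under 9 alternatives, and under 1 chosen after seeing the data, without LINC00311, which moved no count by over 1.5 times. In PEN-FFW against PEN, the higher count (6) was 9 with a pseudocount of 1 and 3 at a minimum of 50. It was 4 with a pseudocount of 30, as deposited, with centring on genes of similar count and without exon overlap. The lower count (1) was 2 with a pseudocount of 1 and 0 with a pseudocount of 30 and with GC centring. It was also 0 at a minimum of 50 and without rows whose exons overlap another gene, sets that leave out LINC00326, the row called. Those sets hold 43 and 28 rows, so their counts are not out of 75. For the other pairs, only counts that moved by over 1.5 times are given. In PEN-FFW against PEN-MUT, the higher count (7) was 12 with a pseudocount of 1 and 4 with a pseudocount of 30, as deposited, with centring on genes of similar count, at a minimum of 50 and without exon overlap. The lower count (0) was 2 with a pseudocount of 1 and 3 with abundance centring. In PEN-WT against PEN, the higher count (1) was 2 with a pseudocount of 1 and 0 with a pseudocount of 30. It was also 0 at a minimum of 50, which leaves out LINC00308, the row called. The lower count (0) was 1 with a pseudocount of 1. In PEN-MUT against PEN, the higher count (0) was 2 with a pseudocount of 1, and 1 as deposited and with abundance centring. In PEN-FFW against PEN-WT, the higher count (5) was 2 with a pseudocount of 30, 3 as deposited, with abundance centring and without exon overlap, and 1 at a minimum of 50. The medians against PEN, PEN-MUT and PEN-WT (0.23, 0.14 and 0.16) were -0.01, -0.12 and -0.12 as deposited, -0.0, -0.06 and -0.01 with abundance centring, and 0.41, 0.45 and 0.38 over the 28 rows without exon overlap. The cause was not tested. The same 3 medians were 0.25, 0.24 and 0.30 with no minimum (107 rows), 0.14, 0.09 and 0.15 at a minimum of 50, and 0.26, 0.22 and 0.22 with GC centring. Median-ratio scaling and no minimum moved no count by over 1.5 times. Against PEN, the 2-fold call in PEN-FFW was lost for LINC00173 (0.85 with a pseudocount of 30, 0.93 as deposited, 0.82 with abundance centring). It was also lost for LINC00326 (-0.61 with a pseudocount of 30, -0.93 with GC centring). Against PEN-MUT, it was lost for LINC00235 (0.89, 0.98 and 0.78) and LINC00852 (0.92, 0.88 and 0.85), in the order given for LINC00173. LINC00176 lost the call as the report gives. LINC00311 lost it against PEN and against PEN-MUT, with a pseudocount of 30 and with abundance centring. The 4 rows still called higher in each of those cases were LINC00442, LINC00174, LINC00645 and LINC00176. Depth limits the low rows most: the lowest read count of a LINC row was 6 to 7 in each library.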
